A study of Mus musculus with 12 samples.

Results

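The comparison set palatal shelves of 3 Pax9-/- mouse embryos from dams given WAY-262611 against those of 3 Pax9-/- embryos from untreated dams, which are 6 of the 12 RNA-seq libraries of the series. The 6 libraries were chosen by their labels, as all libraries with the mutant genotype. All embryos were of the C57BL/6 strain, were labelled embryonic day 14 and came from Pax9+/- dams. Dams of the treated embryos received the compound every day through the tail vein between E10.5 and E14, and the labels of the untreated embryos name no vehicle. The other 6 libraries are control littermates and were used for the test of whether the treatment difference depended on the genotype. The treated controls were 2 wild-type embryos and 1 Pax9+/- embryo, and the untreated controls were 1 wild-type embryo and 2 Pax9+/- embryos. Each library holds the shelves of 1 embryo, taken by micro-dissection.

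Canonical Wnt signalling starts when a Wnt ligand joins a Frizzled receptor to the coreceptors LRP5 or LRP6, which stabilises beta-catenin and lets it act with LEF and TCF factors on genes such as Axin2. The secreted protein DKK1 occupies LRP5 and LRP6, together with the Kremen receptors, and so blocks the signal. WAY-262611 is a small molecule that interferes with DKK1 and is used as a Wnt agonist. PAX9 is a paired-domain transcription factor of neural crest-derived mesenchyme, and mice without it have a cleft secondary palate and no teeth. The series title names a Wnt agonist and palate formation, and the treatment of mutants addresses whether the compound altered the transcriptome of Pax9-/- shelves.

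The embryos fell into 4 litters and 2 sets of column names. Sample titles share a number that was taken to name the litter, although no label states this. WAY mutant 1 came from one treated litter, and WAY mutants 2 and 3 from the other. Untreated mutant 1 came from one untreated litter, and untreated mutants 2 and 3 from the other. The names of the file's columns begin with 1 of 2 prefixes. One prefix marks a set of 4 libraries (mutant 1 and control 1 of each treatment), and the other a set of 8 libraries (mutants and controls 2 and 3). What the prefixes stand for is not stated. On the first principal component of all 12 libraries, which held 52.5% of the variance, the 2 sets lay apart, so the test carried a term for the set and values within each set are given. Within a set every treated embryo is of 1 litter and every untreated embryo of another, and treatment therefore cannot be told apart from litter. The values are FPKM (fragments per kilobase of transcript, adjusted for library depth), and differences are on the log2(FPKM + 0.5) scale, which understates the change of genes near 0. Read totals recovered from the values were 36.8, 37.4 and 39.8 M in the treated mutants and 49.8, 46.8 and 44.0 M in the untreated mutants.

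Pax9 RNA followed the genotype labels in both treatments. It stood at 6.07, 6.13 and 5.69 FPKM in treated mutants and at 7.30, 5.47 and 4.75 FPKM in untreated mutants. Control embryos had 22.8 to 30 FPKM after treatment and 20.3 to 37.5 FPKM without it, so that no mutant reached the level of any control. The treatment difference of Pax9 in mutants was 0.05 ± 0.16 on the log2 scale (SE, 3 embryos against 3). The palatal mesenchyme genes marked the tissue in every library, with a summed level of 12 genes of 1695, 2741 and 2859 FPKM in treated mutants and 1636, 3188 and 2949 FPKM in untreated mutants. These sums differed between the sets more than between the treatments.

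Sex was not balanced between the treatments. Xist, the RNA that silences an X chromosome in female cells, had 126, 0.027 and 0.011 FPKM in treated mutants and 125, 96.6 and 0.027 FPKM in untreated mutants. The Y-linked RNA helicase gene Ddx3y had 0, 19 and 18 FPKM in treated mutants and 0, 0 and 18.8 FPKM in untreated mutants. Both mutants of the 4-library set were therefore Xist-high, and in the 8-library set both treated mutants but only untreated mutant 3 expressed Ddx3y. Without untreated mutant 2, sex-linked expression is alike on both sides within each set, and leading results on Wnt, palatal and hypoxia genes are given without this embryo as well.

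No gene passed the test between treated and untreated mutants. Of the 14107 genes that reached 1 FPKM in 3 or more of the 12 libraries, 0 (0%) had an adjusted p under 0.05 in limma, and the smallest adjusted p was 0.498. An unadjusted p under 0.05 was reached by 388 genes (2.75%), of which 267 were higher and 121 lower in treated mutants. Without untreated mutant 2, limma again called 0 genes, and 206 genes had an unadjusted p under 0.05. The median 95% confidence interval of a difference reached 0.17 log2 units to either side, and for 13855 genes (98.2%) the whole interval lay within a 2-fold change in either direction. A 2-fold mean difference in mutants was therefore outside the interval of nearly every gene measured. The intervals cover the spread between these embryos, which come from only 2 treated and 2 untreated litters.

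The distance between embryos was of the same order with and without a difference in treatment. Littermates of the 8-library set differed by a median absolute log2 value of 0.09 in the treated pair and 0.07 in the untreated pair. Pairs of a treated and an untreated mutant of the same set differed by 0.07 to 0.10. Mutants of different sets differed by 0.15 to 0.185, whatever their treatment.

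To describe the direction of each gene, a gene was counted as separated when the treated mutant of the 4-library set lay beyond the untreated one and both treated mutants of the 8-library set lay beyond both untreated ones, in the same direction. By this count 1337 genes (9.48%) were higher and 873 genes (6.19%) were lower in treated mutants. These shares are the background against which the members of each gene list are read below, and they are no test.

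The readouts of canonical Wnt signalling lay close together in treated and untreated mutants. Axin2 (chr11:108920349-108950783, mm10), a negative feedback scaffold that transcription through beta-catenin induces in many tissues, had 15.5, 13.9 and 12.5 FPKM in treated mutants and 14.3, 15.1 and 13.4 FPKM in untreated mutants. The groups overlapped, and the difference was -0.04 ± 0.07 with a 95% interval of -0.18 to 0.11. Its sign turned without untreated mutant 2, to 0.04. Lef1 (chr3:131110471-131224356), a DNA-binding partner of beta-catenin and itself a target, had 2.92, 1.97 and 1.79 FPKM in treated mutants and 3.09, 2.13 and 1.71 FPKM in untreated mutants. Its difference was -0.04 ± 0.08, with an interval of -0.23 to 0.15, and 0.01 without untreated mutant 2. Within each set the treated and untreated mutants had nearly the same level of Lef1. It stayed under the controls in all mutants, since treated controls had 3.25 to 4.54 FPKM and untreated controls 3.13 to 4.50 FPKM.

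Dkk1 (chr19:30545863-30549665), which encodes the antagonist that the compound acts on, had 3.06, 12.4 and 16.1 FPKM in treated mutants and 1.91, 11.9 and 12.6 FPKM in untreated mutants. Treated mutant 2 lay below untreated mutant 3, so the groups overlapped within the 8-library set. The difference was 0.32 ± 0.13 (95% interval 0.03 to 0.61, limma unadjusted p = 0.0354, adjusted p = 1). It was 0.56 in the 4-library set and 0.20 in the 8-library set, and 0.35 without untreated mutant 2. In controls the difference was 0.18 ± 0.13, and the interaction, the difference in mutants minus that in controls, was 0.14 ± 0.19 (limma unadjusted p = 0.459). Dkk2 and Dkk3, relatives of Dkk1, differed by 0.03 each, and Dkk4 was listed at 0 in all 6 mutants.

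Among the other feedback genes the largest difference was that of Notum, a secreted enzyme that removes the lipid from Wnt proteins. Notum had 2.29, 3.43 and 3.19 FPKM in treated mutants and 1.35, 3.05 and 3 FPKM in untreated mutants, with a difference of 0.27 ± 0.11 (limma unadjusted p = 0.0273, adjusted p = 1). Both sets had the treated embryos higher, by 0.59 in the 4-library set and by 0.11 in the 8-library set. Nkd1, a feedback inhibitor acting on Dishevelled, had 10.6, 12.8 and 12.6 FPKM in treated mutants and 9.64, 12.4 and 12.2 FPKM in untreated mutants, a difference of 0.07 ± 0.07. Lgr5, a receptor for R-spondins, had 10.9, 8.19 and 7.44 FPKM in treated mutants and 10.2, 7.21 and 7.32 FPKM in untreated mutants, a difference of 0.09 ± 0.06. Lgr5 was lower in treated controls, by -0.18 ± 0.06, and its interaction was 0.28 ± 0.09 (limma unadjusted p = 0.00973, adjusted p = 0.399). The transcription factor genes Sp5 and Tcf7 differed by -0.14 ± 0.15 and 0.12 ± 0.16, and the ubiquitin ligase genes Rnf43 and Znrf3, which clear Frizzled from the membrane, by 0.05 and -0.01.

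**Figure D1:**
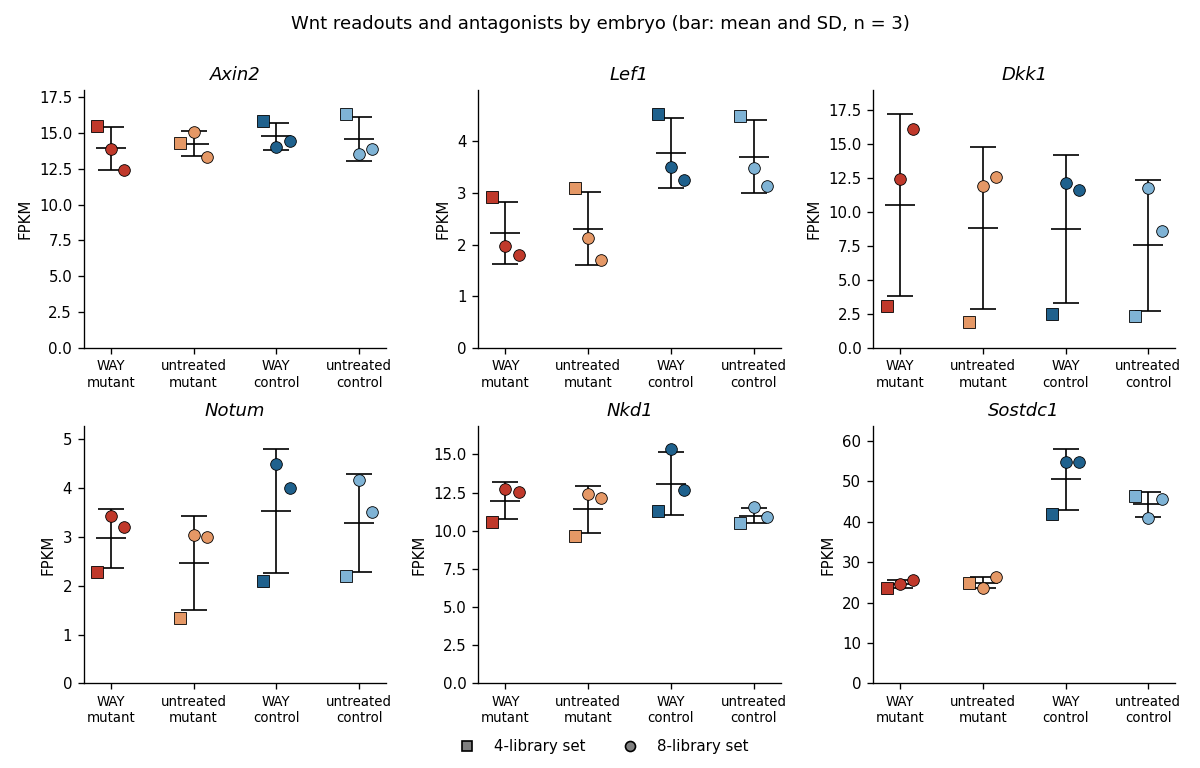
FPKM of 6 Wnt genes in each embryo, with 1 point per embryo, squares for the 4-library set, circles for the 8-library set, and the mean with its SD (n = 3 in each group). Axin2 and Lef1 overlap between treated and untreated mutants, Notum and Nkd1 are higher in the treated embryos of each set, and Sostdc1 is lower in all mutants than in all controls whatever the treatment.

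Taken as a list, 27 tested genes known as canonical Wnt targets had a median difference of 0.00, against 0.01 over all genes. The difference was above 0 for 13 and below 0 for 14 of them, and none passed the test in limma. Without untreated mutant 2 it was above 0 for 18 and below 0 for 9, with a median of 0.03, and in the 8-library set alone it was above 0 for 8 and below 0 for 19. Separation within both sets was found for 3 higher targets (11.1%, against 9.48% of all genes), namely Nkd1, Notum and Lgr5, and for 3 lower targets (11.1%, against 6.19%), which include Sox9 and Tbx3. The median of the list was 0.05 in the 4-library set and -0.07 in the 8-library set. Over the alternative settings it ran from -0.07 to 0.03, with both signs among them.

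The components on which DKK1 acts were all expressed in mutants. Lrp6 had 25.6, 28.0 and 26.0 FPKM in treated mutants and 25.8, 26.5 and 24.7 FPKM in untreated mutants, a difference of 0.04 ± 0.10. Lrp5 had 25.1, 29.0 and 30.3 FPKM in treated mutants and 22.5, 28.9 and 27.6 FPKM in untreated mutants, a difference of 0.09 ± 0.07. Kremen1 had 13.5, 16.7 and 17.2 FPKM in treated mutants and 11.7, 16.4 and 16.3 FPKM in untreated mutants, a difference of 0.10 ± 0.05. The list of receptor and coreceptor genes also held R-spondin genes. Of its 25 tested genes, 5 were higher in treated mutants within both sets (20.0%, against 9.48% of all genes). They were Lrp5, Kremen1, Lrp4, Lgr5 and the R-spondin gene Rspo1. Rspo3, an R-spondin that keeps Frizzled at the membrane, was the 1 lower member (4.00%, against 6.19%). No member of this list reached an unadjusted p under 0.05 in mutants in limma, against 2.75% of all genes. The list median was -0.015.

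Other secreted antagonists of the pathway stood near no difference. Sostdc1, an inhibitor of both Wnt and BMP signalling in tooth and palate, had 23.7, 24.5 and 25.6 FPKM in treated mutants and 24.8, 23.5 and 26.3 FPKM in untreated mutants, a difference of -0.02 ± 0.09. Controls had 41.9 to 54.8 FPKM after treatment and 40.8 to 46.4 FPKM without it, so that no mutant of either treatment reached a control. Sfrp1, Sfrp2 and Frzb, which bind Wnt proteins outside the cell, differed by -0.02, -0.11 and 0.02, and Wif1 by 0.09. The median over 13 tested antagonists was -0.01. Separation was found for 1 higher member (Notum, 7.69%, against 9.48% of all genes) and 1 lower (Sfrp4, 7.69%, against 6.19%).

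Of the Wnt ligands, Wnt10a, expressed in dental and oral epithelium, had 1.40, 3.44 and 3.31 FPKM in treated mutants and 0.876, 2.99 and 3.06 FPKM in untreated mutants. The treated embryos were higher within both sets, with a difference of 0.25 ± 0.11 (limma unadjusted p = 0.0425, adjusted p = 1). Of 15 tested ligand genes, 3 were separated higher (Wnt3a, Wnt4 and Wnt10a, 20.0%, against 9.48% of all genes). Wnt11 was the 1 lower member (6.67%, against 6.19%), and the median was -0.015. Wnt5a, a non-canonical ligand of anterior palatal mesenchyme, differed by -0.06. Ctnnb1, the gene of beta-catenin, had 363, 356 and 359 FPKM in treated mutants and 363, 362 and 358 FPKM in untreated mutants, a difference of -0.01 ± 0.04. The median over 28 intracellular pathway genes was 0.00. Of these, 2 were separated higher (7.14%, against 9.48%) and 2 lower (7.14%, against 6.19%). RNA levels do not report beta-catenin protein, which the pathway regulates by its stability.

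Genes that pattern the palate had small differences in mutants, several of them with treated embryos lower. Msx1 (chr5:37820485-37824583), a homeobox gene of anterior palatal and dental mesenchyme, had 28.7, 21.1 and 22.1 FPKM in treated mutants and 29.9, 24.9 and 25.7 FPKM in untreated mutants. Treated mutants were lower within both sets, by -0.17 ± 0.07 (limma unadjusted p = 0.0261, adjusted p = 1). In controls the sign was opposite, with 85.2, 65.2 and 59.3 FPKM after treatment and 77.6, 51.7 and 52.4 FPKM without it. The interaction of Msx1 was -0.38 ± 0.09 (limma unadjusted p = 0.0018, adjusted p = 0.399). Bmp4, the signal that maintains Msx1 in mesenchyme, had 9.94, 8.24 and 9.45 FPKM in treated mutants and 11, 9.98 and 9.62 FPKM in untreated mutants, a difference of -0.14 ± 0.08. Bmp4 was higher in treated controls, by 0.30 ± 0.08, and its interaction was -0.44 ± 0.11 (limma unadjusted p = 0.00241, adjusted p = 0.399). Neither interaction passed the test, and Pax9 genotype was not balanced between the treated and untreated controls. The differences in mutants were -0.15 for Msx1 and -0.13 for Bmp4 without untreated mutant 2.

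Osr1, a zinc finger gene of palatal mesenchyme, had 46.1, 24.8 and 28.7 FPKM in treated mutants and 54.3, 30.5 and 35.1 FPKM in untreated mutants. The treated embryos were lower within both sets, by -0.27 ± 0.09 (limma unadjusted p = 0.012, adjusted p = 1), and by -0.33 without untreated mutant 2. Its close relative Osr2, which is needed for growth and elevation of the shelves, had 136, 125 and 129 FPKM in treated mutants and 145, 139 and 135 FPKM in untreated mutants, a difference of -0.11 ± 0.14. Dlx5, a homeobox gene of craniofacial mesenchyme, had 25.2, 21.5 and 23.2 FPKM in treated mutants and 26.5, 26.1 and 25.8 FPKM in untreated mutants, without overlap, and a difference of -0.17 ± 0.09. Sox9, known for cartilage formation, had 19.8, 12.7 and 13.3 FPKM in treated mutants and 24.2, 15.0 and 14.0 FPKM in untreated mutants, and its difference of -0.19 ± 0.05 had a limma unadjusted p of 0.00383 and an adjusted p of 1. For Osr1 and Sox9, treated embryos were the lower ones within each set, while the groups overlapped across sets.

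**Figure D2:**
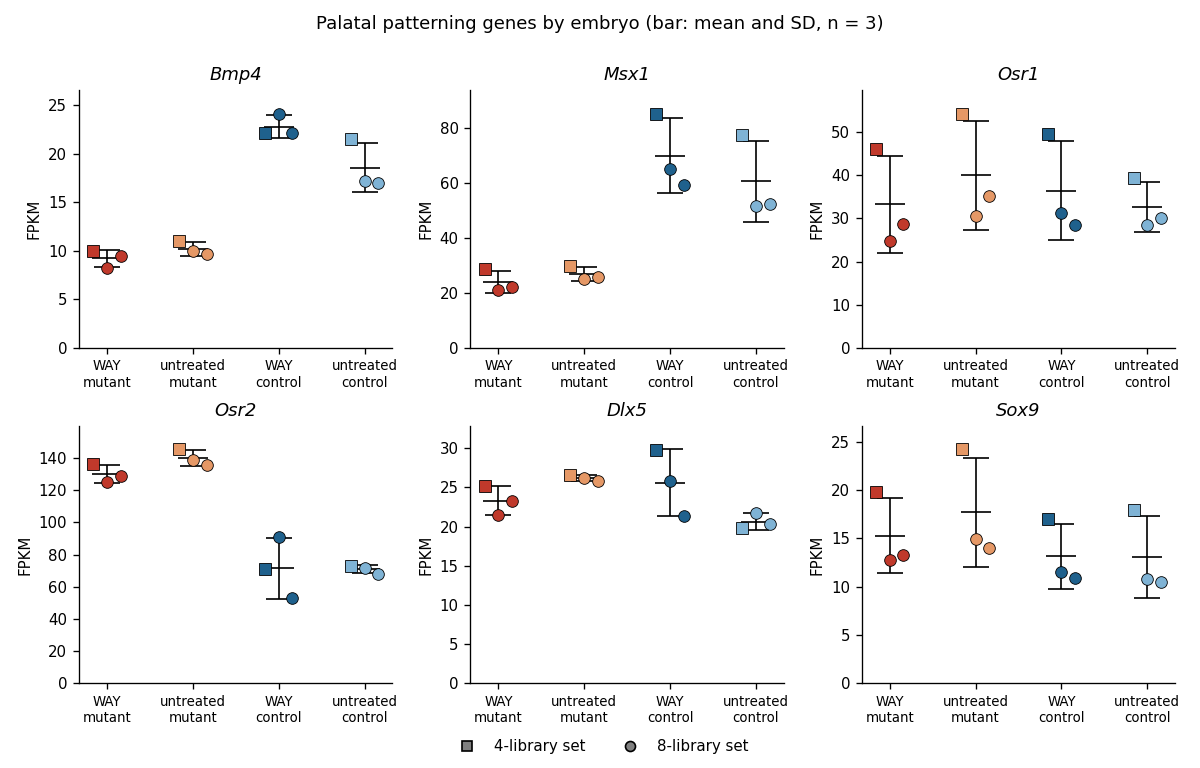
FPKM of 6 palatal patterning and mesenchyme genes in each embryo, drawn as for the Wnt genes (n = 3 in each group, mean and SD). Bmp4 and Msx1 are lower in all mutants than in all controls, Osr2 is higher in all mutants, and in Dlx5 the 3 treated mutants, at 21.5 to 25.2 FPKM, lie below the 3 untreated mutants, at 25.8 to 26.5 FPKM.

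Over 50 tested palatal patterning genes, 10 were lower in treated mutants within both sets (20.0%, against 6.19% of all genes) and 4 were higher (8.00%, against 9.48%). Among the lower ones were Msx1, Bmp4, Osr1, Osr2, Tbx3, Mn1, Dlx2, Dlx5 and Wnt11, and the higher ones were Fgf7, Foxd2, Jag2 and Hand2. The list median was -0.01, and -0.005 without untreated mutant 2, no member passed the test, and 6 members had an unadjusted p under 0.05. Of 12 general markers of palatal mesenchyme, 5 were separated lower (41.7%, against 6.19% of all genes) and none higher (against 9.48%). The lower ones were Pdgfra, Vim and the patterning genes Osr1, Osr2 and Msx1. The median over the 12 was -0.065, against -0.02 without untreated mutant 2. Hand2, a bHLH factor gene that is also expressed in sympathetic neurons, had the largest difference, with 1.08, 1.05 and 3.57 FPKM in treated mutants and 0.358, 0.219 and 0.702 FPKM in untreated mutants. Among 30 BMP pathway genes, 4 were separated lower (13.3%, against 6.19%) and none higher (against 9.48%), with a median of -0.02. Among 19 FGF pathway genes, 6 were separated higher (31.6%, against 9.48%) and 3 lower (15.8%, against 6.19%), with a median of 0.06. Fgfr3, a receptor for several FGFs, had 8.01, 13.8 and 12.8 FPKM in treated mutants and 6.50, 11.8 and 12.4 FPKM in untreated mutants, and Dusp6, a feedback phosphatase for ERK, had 38.2, 21.3 and 21.7 FPKM in treated mutants and 44.1, 24.4 and 25.5 FPKM in untreated mutants.

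Of the 33 gene lists, the one with the highest share of members separated in 1 direction held glucose transport, glycolysis and low-oxygen response genes. These genes are known as targets of the hypoxia-inducible factors, which bind DNA at a short core, ACGTG or GCGTG, when oxygen is low. All 25 tested members had a difference above 0 in mutants, against 54.9% of all genes, although none passed the test in limma (0% called). Separation within both sets, with treated mutants higher, was found for 16 of 25 (64.0%, against 9.48%), and an unadjusted p under 0.05 for 17 of 25 (68.0%, against 2.75%). The median difference was 0.20, against 0.01 over all genes, and differences ran from 0.05 to 0.54. The members share their regulators and their libraries and are not independent of each other. Summed over 26 genes, the level was 884.6, 1190 and 1322 FPKM in treated mutants and 844.2, 1003 and 1083 FPKM in untreated mutants, and the treated embryos were higher within each set.

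Promoters of 3 genes with higher levels in treated mutants were chosen because each holds the core in more than 1 place, not by rank. They are RefSeq sequences of GRCm38.p6, from 250 bases before to 50 bases after the gene's start, written 5′ to 3′ along the gene's strand. Capitals mark each ACGTG or GCGTG, which read CACGT or CACGC where the core lies on the opposite strand.
Slc2a1, chr4:119108495-119108794, plus strand: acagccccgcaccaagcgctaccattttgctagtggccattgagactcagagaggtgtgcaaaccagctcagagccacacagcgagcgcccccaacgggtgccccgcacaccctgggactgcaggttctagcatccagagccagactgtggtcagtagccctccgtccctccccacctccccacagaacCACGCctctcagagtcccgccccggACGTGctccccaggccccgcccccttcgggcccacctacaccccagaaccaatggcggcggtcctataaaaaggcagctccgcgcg
Slc16a3, chr11:120948817-120949116, plus strand: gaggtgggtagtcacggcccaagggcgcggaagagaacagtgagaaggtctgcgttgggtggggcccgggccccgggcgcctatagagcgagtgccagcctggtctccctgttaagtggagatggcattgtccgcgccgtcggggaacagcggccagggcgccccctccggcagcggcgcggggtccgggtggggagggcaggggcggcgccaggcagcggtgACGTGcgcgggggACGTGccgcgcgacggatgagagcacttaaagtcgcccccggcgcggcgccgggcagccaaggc
Hk2, chr6:82774405-82774704, minus strand: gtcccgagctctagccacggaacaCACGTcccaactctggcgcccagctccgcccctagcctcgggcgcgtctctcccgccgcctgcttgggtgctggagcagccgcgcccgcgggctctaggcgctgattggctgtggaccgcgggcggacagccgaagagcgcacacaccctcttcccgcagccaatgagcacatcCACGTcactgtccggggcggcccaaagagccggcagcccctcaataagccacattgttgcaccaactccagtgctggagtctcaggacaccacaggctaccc
Both strands were searched for ACGTG and GCGTG, and the letters alone are common, since 43.8% of 32851 promoters and 46.7% of 27025 genes hold at least 1 core. Among the list, 23 of 24 genes with a promoter sequence hold one. The list holds genes known as targets of the hypoxia-inducible factors, so this share describes the list and is no result of these data. A match is a description of the sequence and shows no binding in these shelves.

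Slc2a1 encodes the glucose transporter GLUT1. It had 49.5, 83.7 and 99.8 FPKM in treated mutants and 43.2, 60.1 and 65.7 FPKM in untreated mutants, a difference of 0.42 ± 0.10 (limma unadjusted p = 0.00196, adjusted p = 1). Slc16a3, the lactate exporter MCT4, is no member of the list but has one of the smallest p values, with 7.43, 17.5 and 19.6 FPKM in treated mutants and 6.20, 10.7 and 12.5 FPKM in untreated mutants, a difference of 0.52 ± 0.10 (limma adjusted p = 0.922). For both transporters the treated embryos were higher within each set, and both treated embryos of the 8-library set lay above every untreated mutant. Hk2, the hexokinase that starts glucose breakdown in many growing tissues, had 11.1, 14.7 and 15.7 FPKM in treated mutants and 10, 11.1 and 10.6 FPKM in untreated mutants. Ndrg1, a gene induced by low oxygen in many cells, had 4.76, 13.2 and 15.6 FPKM in treated mutants and 3.48, 9.99 and 11.5 FPKM in untreated mutants. Ldha, the lactate dehydrogenase subunit that turns pyruvate into lactate, had 151, 231 and 236 FPKM in treated mutants and 144, 193 and 213 FPKM in untreated mutants. The differences were 0.36 ± 0.10 for Hk2, 0.41 ± 0.10 for Ndrg1 and 0.16 ± 0.05 for Ldha.

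Genes of the low-oxygen response outside glycolysis also had differences above 0, several of them mostly in the 8-library set. Ddit4, an inhibitor of mTORC1, had 63.4, 87.9 and 127 FPKM in treated mutants and 57.5, 70.2 and 74.0 FPKM in untreated mutants. Vegfa, which directs vessel growth, had 29.6, 36.6 and 42.0 FPKM in treated mutants and 30.8, 25.6 and 28.3 FPKM in untreated mutants, so that its sign was reversed in the 4-library set. Egln3, a prolyl hydroxylase that marks hypoxia-inducible factors for removal, had 8.56, 11.6 and 16.3 FPKM in treated mutants and 8.66, 7.73 and 8.60 FPKM in untreated mutants. Its difference was -0.02 in the 4-library set and 0.72 in the 8-library set. Bnip3, a mitophagy receptor, had 6.31, 11.1 and 12.1 FPKM in treated mutants and 6.28, 7.31 and 9.06 FPKM in untreated mutants. Over the list the median was 0.065 in the 4-library set and 0.25 in the 8-library set. WAY mutant 3 was the highest mutant for the summed list (1322 FPKM). It was also the highest for every gene with values in this and the preceding paragraph. The glycolytic genes Gapdh, Pgk1 and Eno1 have near-identical copies in the mouse genome, and Gapdh was listed at only 2.11, 2.42 and 3.08 FPKM in treated mutants and 2.02, 1.74 and 1.89 FPKM in untreated mutants, so their values are uncertain.

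**Figure D3:**
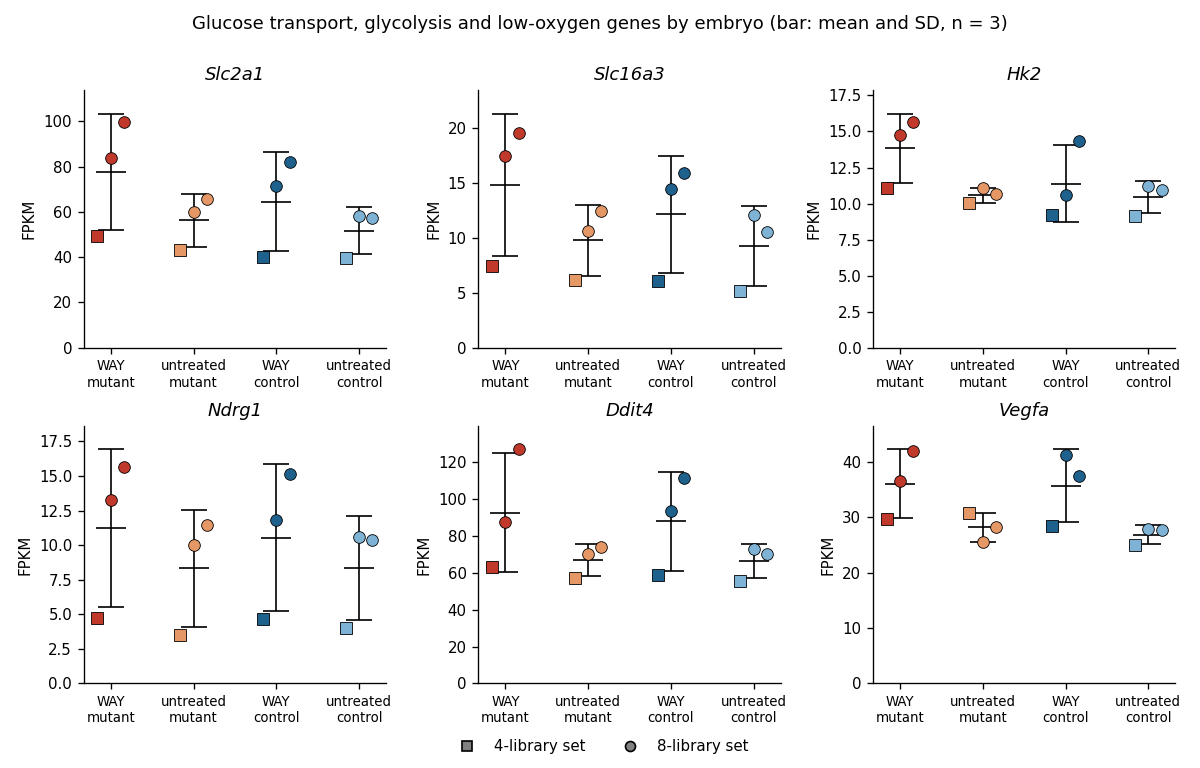
FPKM of 6 genes of glucose and lactate transport, glycolysis and the low-oxygen response in each embryo, drawn as for the Wnt genes (n = 3 in each group, mean and SD). Within the 8-library set both treated mutants lie above both untreated mutants for every gene shown, and in the 4-library set the treated mutant is higher for all but Vegfa.

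The sign of the list in mutants was the same when sex or single embryos were taken into account. Without untreated mutant 2, which balances sex-linked expression within the sets, all 25 members stayed above 0 with a median of 0.17. With a term for the mean log2 level of Y-linked genes the median was 0.17, again with 25 of 25 above 0. Without WAY mutant 3 the median was 0.17 and 24 of 25 were above 0. Treated controls, which are littermates of the treated mutants, had a median of 0.175 in the same list, with 17 of 25 members separated higher (68.0%, against 26.3% of all genes in controls). In controls 1 member passed the test, Aldoa, a glycolytic aldolase, with 0.35 ± 0.08 (limma adjusted p = 0.0461), a call lost with the term for Y-linked genes, and it had 0.17 ± 0.08 in mutants. None of the 25 members reached an unadjusted p under 0.05 for the interaction in limma, against 11.7% of all genes. The median interaction was 0.045, against -0.025 over all genes. The lack of a small p does not show that the difference was equal in both genotypes. Cell type lists also had medians away from 0 in mutants, at 0.25 for skeletal muscle, which is rich in glycolytic enzymes, 0.22 for neuronal and -0.22 for erythroid genes. Without untreated mutant 2 the muscle median was -0.04, with 7 genes above and 17 below 0, while the neuronal median was 0.125 and the erythroid median -0.27. In controls of the 4-library set, with 1 treated and 1 untreated embryo, the medians were 1.57 for muscle and 0.10 for the hypoxia and glycolysis list. The part of muscle, neuronal and erythroid cells in the difference was not tested. The difference of the hypoxia and glycolysis genes was present in both genotypes of the same treated litters, and treatment cannot be told apart from litter for it.

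The genes with the smallest p in mutants were named by rank, since none passed. Higd1a, a mitochondrial protein gene induced by low oxygen, had 11, 17.3 and 17.9 FPKM in treated mutants and 9.65, 13.3 and 14.5 FPKM in untreated mutants, a difference of 0.28 ± 0.05 (limma adjusted p = 0.922). Other higher genes were Slc16a3, Ndrg1 and Slc2a1, described above, and Ankrd34a, Zfp189, Mllt11, Mettl18 and Tsacc, with differences of 0.23 to 0.48.

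Among the lower genes, Vstm2a had 1.63, 1.62 and 1.59 FPKM in treated mutants and 2.83, 2.10 and 2.07 FPKM in untreated mutants, without overlap. Its difference was -0.41 ± 0.10 in mutants and -0.42 ± 0.10 in controls. Flrt3, a transmembrane protein of FGF signalling and cell adhesion, had 18.2, 13.3 and 12.7 FPKM in treated mutants and 21.7, 14.7 and 14.2 FPKM in untreated mutants, a difference of -0.18 ± 0.04. Aplnr, the apelin receptor of endothelial cells, had 23.6, 18.3 and 17.3 FPKM in treated mutants and 24.0, 25.3 and 23.1 FPKM in untreated mutants, so that its difference lay almost wholly in the 8-library set. Cyp1b1, a cytochrome P450, differed by -0.25 ± 0.06, and Arrdc4, an arrestin-domain gene that responds to glucose, by -0.31 ± 0.09. The remaining lower genes were Sox9, described above, and Mab21l1, Scfd1, Pramef8 and Tmem243, with differences of -0.15 to -0.32. Pramef8 belongs to a family of near-identical copies, and its counts are uncertain.

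The test of whether treatment acted differently in mutants and controls called 0 genes (0%) in limma, with a smallest adjusted p of 0.39, while 1646 genes (11.7%) had an unadjusted p under 0.05. In controls themselves, 118 genes rose (0.836%) and 257 fell (1.82%) at an adjusted p under 0.05 in limma, and 101 rose and 386 fell when libraries were scaled by median ratios. A number of called genes in controls and none in mutants is no test of a difference between them. The control count depended on the fit, since it was 0 with a term for Y-linked level, 0 without the term for the set, and between 0 and 1900 when each library was left out in turn. In the 8-library set both treated controls expressed Ddx3y and both untreated controls had high Xist, so that treatment, litter and sex cannot be told apart there. Pax9 genotype was unbalanced there as well, since both untreated controls were Pax9+/- and the treated controls included a wild-type embryo.

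Most genes with the smallest interaction p differed less in mutants than in controls. Lamp2, a lysosomal membrane protein, had 19.1, 23.4 and 22.5 FPKM in treated mutants and 19.8, 23.6 and 22.2 FPKM in untreated mutants, a difference of -0.01 ± 0.04. In controls it had 15.7, 17.4 and 17.8 FPKM after treatment and 20.3, 23.3 and 22.5 FPKM without it, and its interaction was 0.36 ± 0.06 (limma adjusted p = 0.399). Epm2aip1, Abhd17b and Ppp3cb, a catalytic subunit of calcineurin, had the same form, with differences of -0.01 to -0.04 in mutants and of -0.34 to -0.47 in controls. Nfat5, a transcription factor of the osmotic response, differed by 0.14 ± 0.06 in mutants and by -0.29 ± 0.06 in controls. Stmn1, a regulator of microtubules, had 14.0, 12.4 and 13.4 FPKM in treated mutants and 15.3, 13.4 and 14.3 FPKM in untreated mutants, against 20.9, 17.4 and 16.9 FPKM in treated controls and 16.5, 13.5 and 13.9 FPKM in untreated controls. Kazald1, Mrpl43, Npl and Asf1b, a histone chaperone of dividing cells, also had a negative interaction, between -0.23 and -0.58. All 10 had a limma adjusted p of 0.399 for the interaction. Smaller p values belonged to the small RNA genes Snora23, with an interaction of 2.40 (limma adjusted p = 0.39), and Mir5117, with 2.26 (limma adjusted p = 0.399), which the rule for named genes leaves out. With litter as a fixed block, which mutants and controls share, the interaction again called 0 genes in limma, with a smallest adjusted p of 0.186 and 1540 genes at an unadjusted p under 0.05.

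Cell type markers were used to compare the dissections, and some of their sums differed widely between embryos. Oral epithelial genes summed to 546.9, 1081 and 980.2 FPKM in treated mutants and 487.9, 1035 and 1011 FPKM in untreated mutants, with a median difference of 0.01 over 26 genes. Skeletal muscle genes summed to 1093, 402.6 and 557.6 FPKM in treated mutants and 1101, 254.5 and 454.9 FPKM in untreated mutants. All 24 tested muscle genes had a difference above 0 (7 of them without untreated mutant 2). None was separated within both sets, against 9.48% of all genes higher and 6.19% lower. The median was -0.02 in the 4-library set, with 11 genes above 0, and 0.41 in the 8-library set, where both treated mutants lay above both untreated ones for only 1 gene. In bulk tissue, fewer cells of a type and less RNA per cell cannot be told apart. Cell cycle genes had a median of -0.01 over 35 genes, with 3 separated higher (8.57%, against 9.48%) and 1 lower (2.86%, against 6.19%).

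Neuronal genes differed among embryos of the same treatment. They summed to 127.5, 123.2 and 217.9 FPKM in treated mutants and 113.8, 107.4 and 161.5 FPKM in untreated mutants, with the highest sum in WAY mutant 3. The median over 17 neuronal genes was 0.22 in mutants (0.04 without WAY mutant 3) and 0.72 in treated against untreated controls, and 3 were separated higher in mutants (17.6%, against 9.48%). The part of nerve or ganglion tissue taken along in the dissection was not tested. Erythroid genes had a median of -0.22 with 1 of 11 above 0, and Hba-a1, an alpha globin gene with a near-identical copy, had 119, 92.8 and 132 FPKM in treated mutants and 158, 122 and 128 FPKM in untreated mutants.

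**Figure D4:**
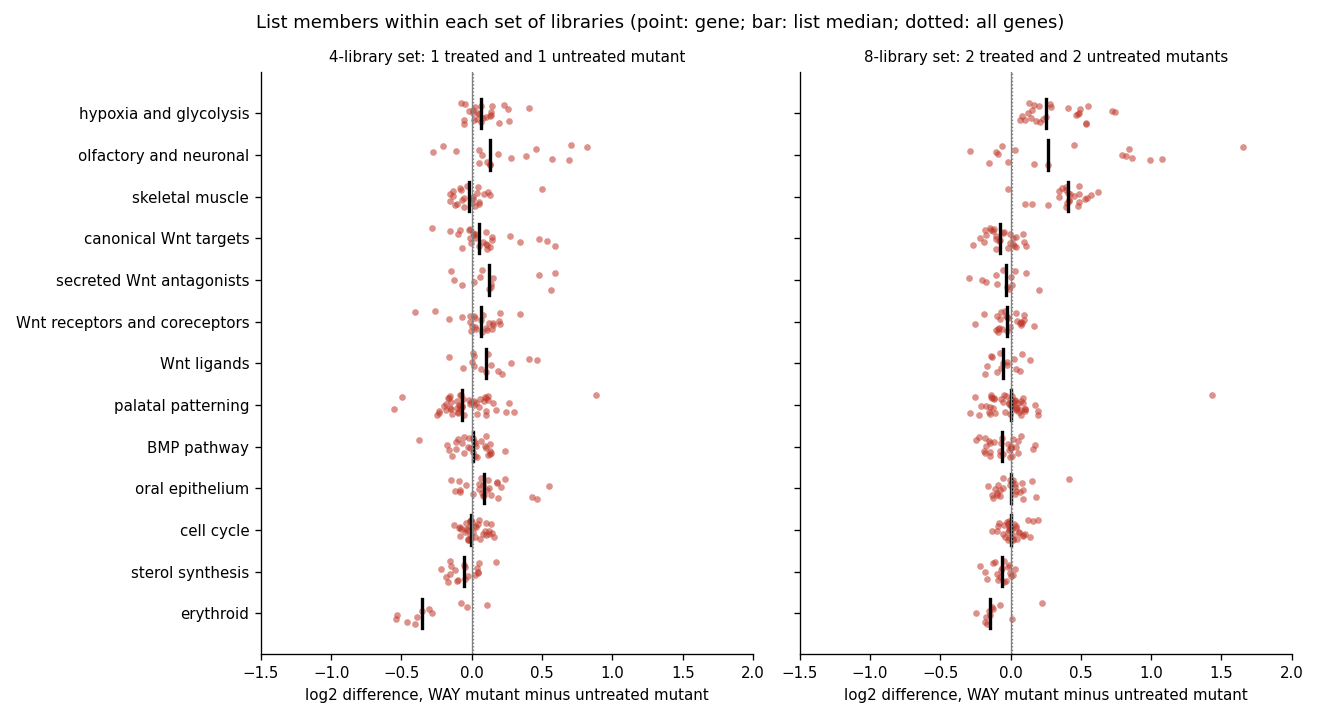
Log2 difference of treated minus untreated mutants for each tested member of 13 gene lists, in the 4-library set (left, 1 embryo against 1) and the 8-library set (right, 2 against 2), with 1 point per gene, a bar at the list median and a dotted line at the median of all genes. Medians of the hypoxia and glycolysis list lie above that of all genes in both sets (0.065 and 0.25), that of the canonical Wnt targets changes sign (0.05 and -0.07), and that of skeletal muscle lies away from 0 in the 8-library set alone of the 2 sets (-0.02 and 0.41).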

How the data were processed

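RNA of palatal shelves from 12 single embryos was sequenced from oligo(dT)-selected TruSeq libraries, per the labels' protocols. The authors deposited FPKM values for 19083 genes, and the submitters' processing notes name mm10, Novoalign 2.08.03 and DESeq2. No source used here gives the annotation, the counting tool or the strand setting, so reads of overlapping and antisense genes may be shared. Values were whole multiples of 1 read within 0.001 read for 19082 genes, which gave 36.8 to 49.8 M reads per library. Symbols and positions came from GENCODE M21 by identifier (18752 of 19083 matched).

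The 14107 genes that reached 1 FPKM in 3 or more libraries were taken as log2(FPKM + 0.5) and fitted with limma 3.58.1 in R 4.3.3, with 4 group means over 12 libraries, a term for the column set and trended moderation. No count model was fitted to the FPKM values. Errors are standard errors of that fit, p values are two-sided and were adjusted by the Benjamini-Hochberg method over all 14107 genes at 0.05. The design names the 10 genes of each direction with the smallest p in mutants, and 5 for the interaction, and values of genes in 33 lists. Some genes named by it are not reported here. The comparison, its lists and the count of genes separated within both sets were chosen with earlier results of these data known. The fit was tested on simulated data. Replicates are single embryos from 4 litters. Replicate numbers were given in accession order and pair nothing.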

Additional observations from a re-analysis of the deposited data

How the results depend on the processing

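In mutants limma called 0 genes under pseudocounts of 0.1 and 1, no filter, a filter at 5 FPKM, median-ratio scaling, no set term, the 6 mutants alone, the 8 libraries of the 8-library set alone, litter as a random effect, litter means and a term for Y-linked level. Leaving out each library in turn gave 0 to 1 genes in mutants, the 1 being Gm23811 (-1.04, adjusted p = 0.0421) without WAY control 1, and 0 to 2 for the interaction, the 2 being Plagl1 (0.66, adjusted p = 0.0308) and Mir5117 (2.56, adjusted p = 0.0438) without WAY control 2. These 3 genes were named after their values were seen.

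The count of 375 in controls was 0 with no set term, 0 in the 8-library set alone, 0 with a term for Y-linked level, 4 with litter means, 71 with no filter, 740 with a filter at 5 FPKM and 1634 with litter as a random effect, where the consensus correlation was -0.127. Leaving out each library gave 0 to 1900, with 0 without WAY mutant 1, WAY control 1, untreated control 2 or untreated control 3, 18 without untreated mutant 2 and 1900 without WAY control 3. Without WAY mutant 3, untreated mutant 1, untreated mutant 3, WAY control 2 and untreated control 1 it was 152, 156, 108, 118 and 75. The cause was not tested.

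Of 63 named genes in 1433 gene and setting pairs, 47 values moved by more than 1 SE of the reported difference. Many of these pairs could not move, because some settings leave the difference in mutants unchanged by design. These are the fits with no set term, no filter, a filter at 5 FPKM or mutants alone, and those leaving out a control embryo. The share of moved values therefore understates how far the differences depend on the processing. None of the named genes passed the test in mutants. The median of the hypoxia and glycolysis list ran from 0.17 to 0.25 over all settings. No paired analysis was possible because replicate numbers were given in accession order and treated and untreated embryos come from different litters, except for the interaction, where mutants and controls share litters. There a fit with litter as a fixed block, added after the data were seen, called 0 genes, with signs and values of the 10 named genes within 1 SE of those reported.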

Other observations

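Sterol synthesis genes were slightly lower in treated mutants. Of 19 tested genes, 17 had a difference below 0, and 6 were separated lower within both sets (31.6%, against 6.19% of all genes), among them Sqle, Fdps, Cyp51, Msmo1 and Insig1, while none was separated higher. The list median was -0.07 in mutants (-0.06 without untreated mutant 2) and -0.15 in controls, and no member passed the test in mutants. Insig1, which holds back sterol synthesis when sterols are plentiful, had 14.1, 14.3 and 15.6 FPKM in treated mutants and 15.6, 17.6 and 17.4 FPKM in untreated mutants, a difference of -0.19 ± 0.06 (limma unadjusted p = 0.00901, adjusted p = 1). Cyp51, a demethylase of sterol synthesis, had 31.3, 34.3 and 32.5 FPKM in treated mutants and 34.9, 36.8 and 34.7 FPKM in untreated mutants, without overlap. In controls 12 of 19 members were separated lower (63.2%, against 17.5% of all genes), so that the sign was shared by both genotypes of the treated litters. Treatment cannot be told apart from litter here either.

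Interferon response genes had a median of -0.21 in mutants. Of the 14 genes of the list only 6 were tested, and 0 of 6 were above 0, against 54.9% of all genes. Separation was found for 2 lower members (33.3%, against 6.19% of all genes). The median was -0.49 in the 4-library set and -0.06 in the 8-library set.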
